A study of Mus musculus with 28 samples.

Results

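Cholesterol synthesis and its control by SREBP (sterol regulatory element-binding protein) were followed through 29 genes, chosen by name from the mevalonate, sterol and SREBP pathways and matched by symbol to the 55414 genes of the deposited tables. Of the 29, 10 were classed as before squalene, 11 as from squalene on, and 8 as regulation. The first class also holds Ggps1, whose product leaves the route to squalene, and Acat1, a mitochondrial thiolase. Gene expression had been measured in whole brain of mice in the cuprizone model, in which a copper chelator given in food kills oligodendrocytes and myelin is lost, then grows back after withdrawal. The 28 libraries form 4 groups of 7: naive (CPZ0), peak of demyelination (CPZ5) and remyelination (CPZ6+1), all TNFR1ff controls backcrossed onto C57BL/6, and remyelination (CPZ6+1) in mgTNFR1KO mice, genotype Cx3cr1-CreER.Tnfr1ff, after tamoxifen. All 4 groups thus carry the floxed Tnfr1 allele, and the knockout group differs from the remyelination controls in Cre as well as in the deletion. Cx3cr1 drives Cre in microglia and in other macrophages, and the deletion concerns TNFR1, a receptor of tumour necrosis factor. The labels do not state the unit of the stage codes, the age and sex of the mice, or whether the controls received tamoxifen. The labels speak of samples and not of separate animals, so p-values measure the spread between these samples, which may in part be technical.

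As background, cholesterol is made from acetyl-CoA through mevalonate and isoprenoid units to squalene, which is then closed into lanosterol and trimmed to cholesterol. The precursors made before squalene also feed other products, whereas steps from squalene on serve sterols. When membrane sterol is low, SCAP carries SREBP from the endoplasmic reticulum to the Golgi, where the site-1 and site-2 proteases (Mbtps1 and Mbtps2) release the active factor, and INSIG proteins hold the complex back when sterol is plentiful. The brain makes its own cholesterol, since lipoproteins do not cross the blood-brain barrier, and myelin holds most of it.

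Levels are CPM, counts scaled to library size, after TMM normalisation, given as mean ± SD over the 7 libraries of a group. Because each transcript gives 3′ tags, levels of different genes can be compared without a length correction. Differences are log2 fold changes with their standard error (SE) from the edgeR quasi-likelihood test fitted to 12423 genes in all 28 libraries, and a gene was called higher or lower below a Benjamini-Hochberg adjusted p of 0.05 over all genes tested. All 29 members passed the filter on low counts. Library totals lay between 1522913 and 3137254 counts, so that 3 counts, taken as the floor of detection, corresponded to 0.956 to 1.97 CPM before TMM scaling. On the TMM scale the floor was higher in naive library 1, where 9 counts of Mvd stood at 7.158 CPM. The most abundant gene took between 1.33 and 25.54% of a library, the extremes being knockout library 1 and naive library 1. Tnfrsf1a, which encodes TNFR1, stood at 13.4 ± 3.07, 27.3 ± 4.89, 23.2 ± 4.47 and 22.1 ± 4.22 CPM in naive, demyelination, remyelination and knockout libraries. Its 3′ tags may lie outside the deleted part and come from cells other than microglia, so this level does not check the deletion. In all, 9 members were called in at least 1 of the 6 comparisons between groups and 20 in none, where 4.74% of all genes tested were called in at least 1.

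Hmgcs1 encodes the cytosolic HMG-CoA synthase that makes the precursor of mevalonate, and it was called in 5 of the 6 comparisons, more than any other member. Its promoter is shown because it was the only one among the 24 members matched to the RefSeq table (GRCm38.p6) with an exact copy of TCACCCCAC, one form of the sterol regulatory element, in the 250 bases before the start. That of Hsd17b7, which encodes a reductase of the demethylation steps, is shown as the other called member among these 24 with a match at up to 1 mismatch. Members without an entry in that table could not be searched. Stard4, a called member without a match of any motif, may be among them. Both are written on the gene's strand. Capitals mark the TCACCCCAC match and each CCAAT, the element bound by NF-Y, read here from the other strand as ATTGG.
Hmgcs1, chr13:119690101-119690350, plus strand: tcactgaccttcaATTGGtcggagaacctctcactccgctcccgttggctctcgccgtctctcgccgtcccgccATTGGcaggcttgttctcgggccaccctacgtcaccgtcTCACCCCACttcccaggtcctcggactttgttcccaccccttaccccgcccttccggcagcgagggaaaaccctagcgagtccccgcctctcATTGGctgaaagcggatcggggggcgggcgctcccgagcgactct
Hsd17b7, chr1:169969206-169969455, minus strand: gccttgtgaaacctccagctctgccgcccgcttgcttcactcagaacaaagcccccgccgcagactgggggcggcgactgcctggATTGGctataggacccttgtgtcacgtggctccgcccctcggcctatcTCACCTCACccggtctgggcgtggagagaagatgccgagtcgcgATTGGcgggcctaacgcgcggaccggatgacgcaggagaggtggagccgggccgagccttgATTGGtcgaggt

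In Hmgcs1 the TCACCCCAC match lay 137 to 129 bases before the start, and in Hsd17b7 the match lay 117 to 109 bases before it. Searched on both strands with up to 1 mismatch, this motif was present in 5 of the 32 promoters of matched members (15.6%), those of Acat2, Hmgcs1, Hsd17b7, Nsdhl and Srebf2, and in 8.47% of all 32851 promoters of the table. CCAAT was present in 65.6% of members' promoters and 33.8% of all, GGGCGG, a GC box, in 75.0% and 32.7%, and CACGTG, an E-box, in 15.6% and 6.02%. A match is a run of letters and not a measured site.

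Between naive brain and the peak of demyelination, 7 of the 29 members fell and 1 rose. The members that fell were Hmgcs1 before squalene, Msmo1, Cyp51, Sc5d and Hsd17b7 from squalene on, and Insig1 and Stard4 among regulators, and the member that rose was Srebf1. Over all genes tested, 0.700% were called lower and 1.30% higher, and the 87 genes lower became 50 without demyelination library 3. The median difference of the members was −0.24, with 21 of 29 below 0, against −0.01 over all genes tested, of which 50.9% lay below 0. In 4 members, Hmgcs1, Msmo1, Cyp51 and Sc5d, all 7 demyelination libraries lay below all 7 naive ones, as they did in 0.467% of all genes tested.

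**Figure D1:**
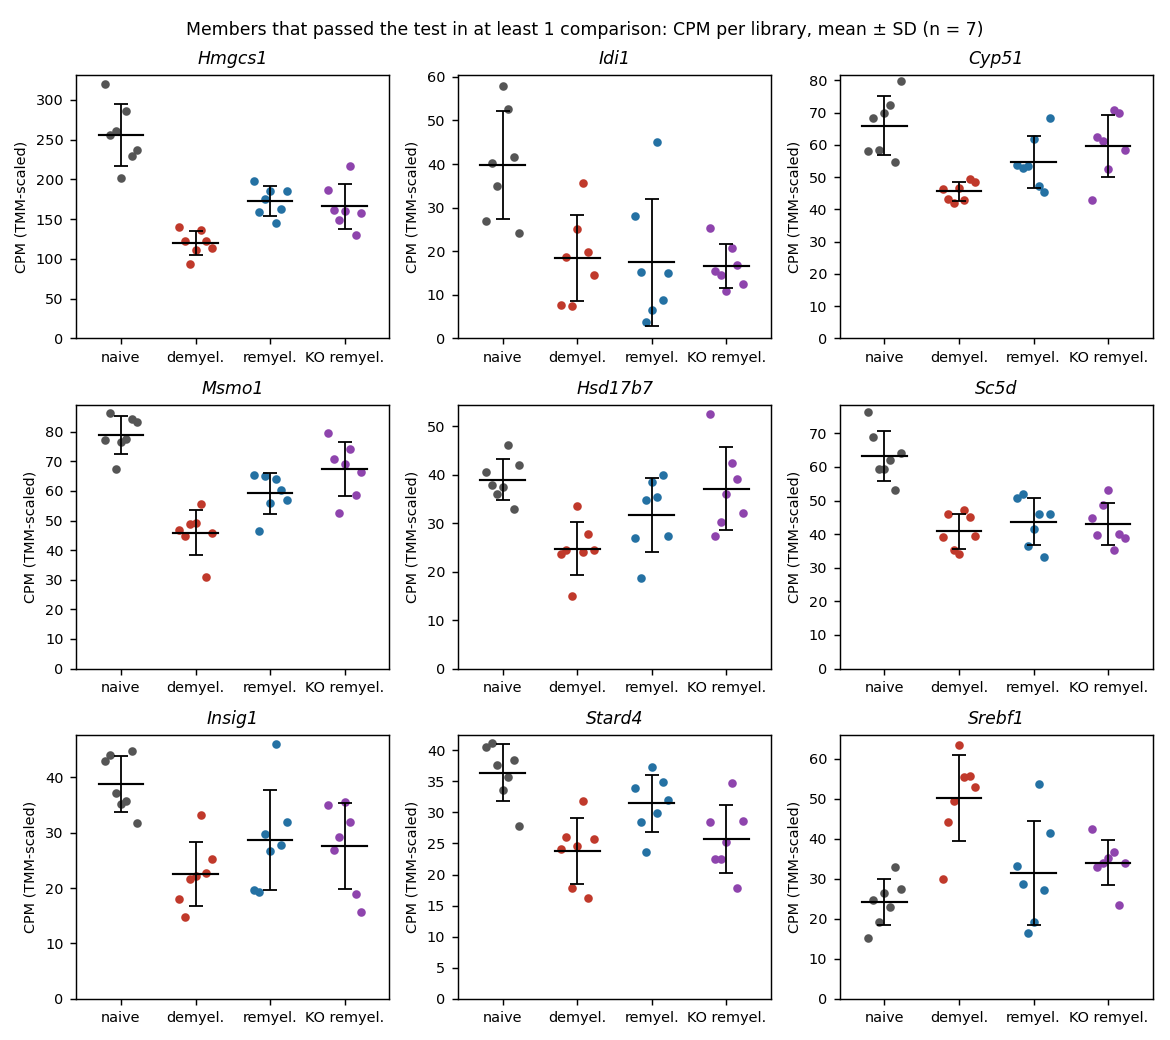
CPM of each of the 9 members called in at least 1 comparison, 1 point per library in the 4 groups, with the group mean and SD (n = 7). Hmgcs1 spans 202 to 321 CPM in naive, 94.0 to 140 in demyelination and 145 to 198 in remyelination libraries, which do not overlap, and 129 to 216 in knockout libraries, which overlap all 3, and Srebf1 is the member that was higher in demyelination.

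Before squalene, 1 of 10 members was called at the peak of demyelination, and 9 of 10 differences lay below 0 with a median of −0.26. Hmgcs1 (ENSMUSG00000093930.3) ranged from 202.0 to 320.5 CPM in naive libraries, with a median of 255.6, and from 94.04 to 139.8 with a median of 122.3 in demyelination. The groups did not overlap. Its mean went from 255.9 ± 38.9 to 120.0 ± 15.6 CPM, a log2 fold change of −1.09 (SE 0.11, adjusted p = 1.22e-09). Acat1, the mitochondrial thiolase of ketone body and isoleucine metabolism, had the second highest mean level of this class, and its ranges overlapped, 87.5 to 127 CPM in naive and 69.2 to 128 in demyelination libraries (−0.14, SE 0.14, adjusted p = 0.72). Idi1 encodes the isomerase that makes dimethylallyl diphosphate, and it ranged from 24.3 to 57.8 CPM with a median of 40.3 in naive and from 7.52 to 35.7 with a median of 18.7 in demyelination libraries. Its difference of −1.12 (SE 0.32) missed the threshold at an adjusted p of 0.0563. It was called by edgeR without the filter on low counts (SE 0.23, adjusted p = 0.000529), although Idi1 itself passed that filter. A second test, DESeq2, did not call it. The remaining members of this class, Acat2, Mvk, Pmvk, Mvd, Fdps, Ggps1 and Fdft1, gave differences between −0.89 for Mvd, at 7.15 CPM in naive libraries, and 0.06 for Pmvk, the kinase of phosphomevalonate.

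From squalene on, 4 of 11 members fell, with a median difference of −0.32 over the class. Msmo1 encodes the methylsterol oxidase of C4 demethylation, and its libraries lay between 67.6 and 86.3 CPM in naive brain with a median of 77.5, and between 30.8 and 55.5 with a median of 46.8 in demyelination. These ranges did not overlap, and the fold change of Msmo1 was −0.78 (SE 0.12, adjusted p = 1.34e-05). Sc5d, the desaturase of a late step, went from 63.3 ± 7.50 to 40.9 ± 5.24 CPM, with the naive libraries at 53.2 or higher and the demyelination libraries at 47.3 or lower (−0.63, SE 0.12, adjusted p = 0.0012). Cyp51, the lanosterol demethylase, went from 65.9 ± 9.19 to 45.6 ± 2.99 CPM (−0.53, SE 0.12, adjusted p = 0.00629), again with no overlap. Hsd17b7 went from 39.0 ± 4.30 to 24.7 ± 5.51 CPM (−0.66, SE 0.17, adjusted p = 0.0196), with 6 of 7 demyelination libraries below the lowest naive one. The call of Hsd17b7 was lost without naive library 5 (adjusted p = 0.0532) or without demyelination library 3 (adjusted p = 0.076). The other 7 members were not called, and they include Sqle, the epoxidase that opens this branch (−0.37, SE 0.19, adjusted p = 0.401), Lss, which closes the ring (−0.25, SE 0.25), and Dhcr7, the last reductase of the Kandutsch-Russell route (−0.32, SE 0.39), whose level of 4.90 CPM in naive libraries was the lowest of the 29. Their summed level was 89.7 ± 12.5 CPM in naive and 84.4 ± 10.7 in demyelination libraries, a sum formed after the calls were known.

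Among the 8 regulators, differences went both ways, with a median of −0.01. Srebf1, which encodes the SREBP-1 proteins best known for lipogenesis, rose from 24.1 ± 5.77 to 50.1 ± 10.8 CPM, a log2 fold change of 1.04 (SE 0.19, adjusted p = 0.000541). Its naive libraries lay between 15.1 and 32.8 CPM with a median of 24.7 and its demyelination libraries between 29.8 and 63.5 with a median of 52.9, so that 6 of 7 lay above the highest naive one. Srebf2 encodes SREBP-2, the form best known for cholesterol genes, and it stood at 28.3 ± 3.73 and 28.9 ± 3.48 CPM (0.03, SE 0.15, adjusted p = 0.963). Insig1, itself an SREBP target, fell from 38.8 ± 5.10 to 22.5 ± 5.86 CPM (−0.77, SE 0.19, adjusted p = 0.0151), whereas its paralog Insig2 stood at 48.8 ± 8.16 and 46.8 ± 6.88 CPM (−0.05, SE 0.15, adjusted p = 0.916). The difference between the paralogs was not tested. Stard4, a soluble sterol carrier, fell from 36.4 ± 4.63 to 23.8 ± 5.28 CPM (−0.61, SE 0.15, adjusted p = 0.0199), and this call was lost without naive library 2 (adjusted p = 0.0556), demyelination library 3 (0.0732) or demyelination library 6 (0.0726). Scap and Mbtps1, the members of this class with the highest mean levels, were at 105 ± 17.6 and 120 ± 26.0 CPM and at 47.8 ± 10.6 and 49.9 ± 5.38 CPM in the same groups and were not called. Mbtps2 differed by −0.06 (SE 0.24). Whether the 3 step classes differed from each other was not tested.

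**Figure D2:**
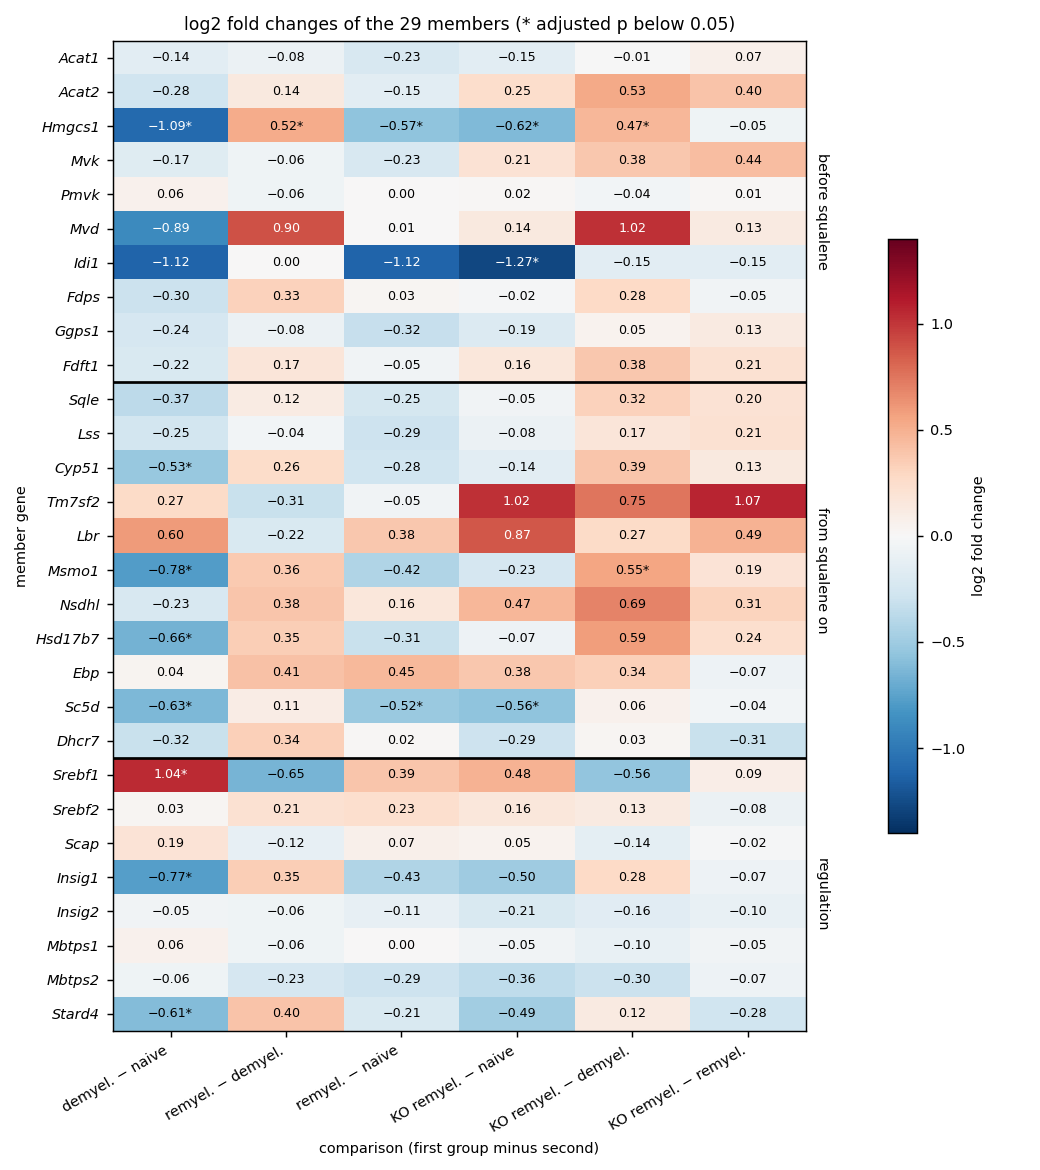
Log2 fold changes of the 29 members (rows, ordered by step class) in the 6 comparisons between groups (columns), with the called values marked. Between demyelination and naive the 7 members called lower fall in all 3 classes, while the column for knockout against remyelination controls has no called member.

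The summed level of the 10 members before squalene was 653 to 747 CPM in naive and 442 to 531 in demyelination libraries, and that of the 11 members from squalene on was 305 to 358 and 231 to 250 CPM. Neither pair of ranges overlapped. Without its called members, the remaining 7 members from squalene on summed to 68.87 to 110.1 CPM in naive and 72.29 to 103.4 in demyelination libraries. These ranges overlapped, in a sum formed after the calls were known. Hmgcs1 made up much of the sum before squalene: without it, the remaining 9 members summed to 431 ± 29.3 and 358 ± 24.1 CPM, and the ranges overlapped, at 378.6 to 465.6 and 319.4 to 394.1 CPM. The sum of these 9 includes Acat1 and Ggps1, which lie off the route, at 109.1 and 75.6 CPM in naive and 99.0 and 64.0 in demyelination libraries. The 8 regulators summed to 325 to 382 CPM in naive and 298 to 412 in demyelination libraries, which overlapped.

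Cell type markers moved in the same comparison. Of 11 oligodendrocyte markers, 11 fell, with a median difference of −1.29, and their summed level went from 3334 to 4902 CPM in naive to 1216 to 1975 in demyelination libraries. Of 8 microglia markers, 6 rose, and the other 2 were not called, P2ry12 at −0.49 (SE 0.20, adjusted p = 0.255) and Tmem119 at −0.18 (SE 0.26, adjusted p = 0.83). The 8 together summed to 194 to 274 CPM in naive and 440 to 587 in demyelination libraries. Of 6 astrocyte markers 1 rose (Gfap, 1.82, SE 0.20, adjusted p = 9.07e-09), and none of 5 precursor, 7 neuron and 4 endothelial markers was called. None of the 41 markers was at 0 in any library. The part of these marker changes in the members' differences was not tested, and in bulk tissue fewer cells of a type and less RNA per cell cannot be told apart.

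**Figure D3:**
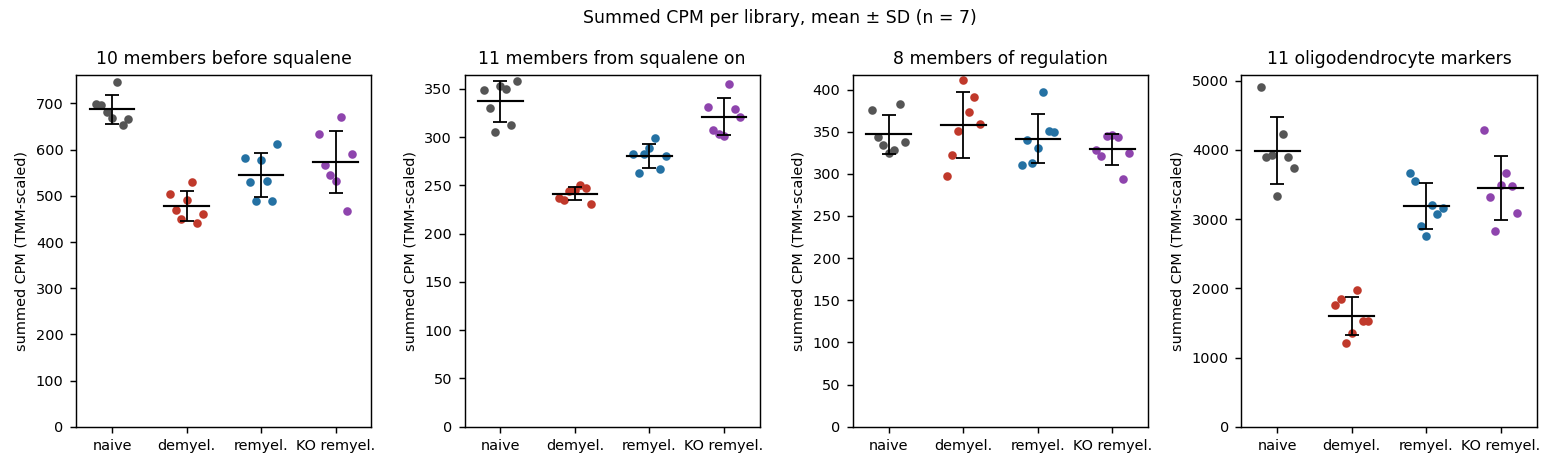
Summed CPM per library of the 3 step classes and of 11 oligodendrocyte markers, with group means and SD (n = 7). The sums before squalene and from squalene on are lower in demyelination than in naive libraries without overlap, and so is the marker sum, while the sums of the 8 regulators overlap. Without the members called in this comparison (not shown), the sums before squalene and from squalene on overlap as well.

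From demyelination to remyelination, 1 member rose and none fell, where 0.201% of all genes were called higher and 0.185% lower. The member was Hmgcs1, which reached 172.8 ± 18.3 CPM (0.52, SE 0.11, adjusted p = 0.00913). Its remyelination libraries lay between 145.0 and 197.7 CPM with a median of 175.0, all above the 7 demyelination libraries, as in 0.153% of all genes tested. The median difference of the 29 members was 0.12, with 17 above 0 and 12 below. Over all genes tested the median was 0.000684, and 49.8% lay below 0. Msmo1 was at 59.1 ± 6.81 CPM (0.36, SE 0.12, adjusted p = 0.324), Insig1 at 28.8 ± 9.04 CPM (0.35, SE 0.19, adjusted p = 0.794) and Srebf1 at 31.4 ± 12.9 CPM (−0.65, SE 0.19, adjusted p = 0.158), and none of these passed. Srebf1 was called lower by edgeR without the filter on low counts (adjusted p = 0.0414), but not by DESeq2, which called no regulator here. Idi1 stood at 17.5 ± 14.6 CPM, with a range of 3.85 to 45.2, a difference of 0.00 (SE 0.30) from demyelination. In the same comparison 9 of 11 oligodendrocyte markers rose, to a sum of 2756 to 3665 CPM, and the microglia markers summed to 368 to 472 CPM, with 1 of 8 lower.

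Compared with naive brain, 2 members were lower in remyelination, Hmgcs1 and Sc5d, and none was higher, where 0.177% of all genes were called lower and 0.451% higher, and the 22 genes lower became 90 without remyelination library 1. Hmgcs1 differed by −0.57 (SE 0.11, adjusted p = 0.00163), and its 7 remyelination libraries lay below the 7 naive ones. Sc5d was at 43.7 ± 7.06 CPM, with a range of 33.3 to 52.1 and a median of 46.0, just under the lowest naive library at 53.2 (−0.52, SE 0.12, adjusted p = 0.0242). Its call was lost without naive library 1 (adjusted p = 0.0737) or 2 (0.0685), or without remyelination library 3 (0.0694), 4 (0.0594) or 6 (0.0779), and also without the filter on low counts (0.0569). Msmo1 also had no overlap between these groups but was not called (−0.42, SE 0.11, adjusted p = 0.0785). All 7 remyelination libraries lay below all 7 naive ones in 0.193% of all genes tested. The oligodendrocyte markers gave 0 calls of 11 here, with 5 at an unadjusted p below 0.05 and a median difference of −0.27. Such an unadjusted p from the edgeR test was found in 10.4% of all genes tested. Of the microglia markers 4 of 8 were higher than in naive brain (median 0.73), and of the astrocyte markers 1 of 6, Gfap (1.33, SE 0.20, adjusted p = 4.13e-05). The comparisons of demyelination and of remyelination with naive share the naive libraries.

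In remyelination, knockout and control libraries were compared for the effect of the microglial TNFR1 deletion, and none of the 29 members was called in either direction, by edgeR or by DESeq2 after the filter on low counts. Without that filter edgeR called Tm7sf2 higher (1.07, SE 0.25, adjusted p = 0.0274). Of all genes tested, 0.0402% were called higher and 0.00805% lower. At an unadjusted p below 0.05 there were 2 members, both higher in the knockout, or 6.90% of the 29 against 7.49% of all genes tested. Tm7sf2, a sterol reductase of the endoplasmic reticulum, was between 6.70 and 36.8 CPM with a median of 31.4 in knockout libraries and between 6.42 and 24.5 with a median of 7.97 in controls (1.07, SE 0.33, adjusted p = 0.525), so that 4 of 7 knockout libraries lay above the highest control. Its exons overlap those of Vps51 on the same strand in the GENCODE annotation, so reads of the genes may have been divided between them and its value is uncertain. Acat2, the cytosolic thiolase of the first step, was at 40.6 CPM in knockout and 31.0 in control libraries (0.40, SE 0.16, adjusted p = 0.604). Hmgcs1 was at 166.0 ± 28.1 CPM in the knockout, with a range of 129 to 216 (−0.05, SE 0.11, 95% interval −0.28 to 0.17). For Srebf1 the interval of the difference ran from −0.30 to 0.49, for Srebf2 from −0.37 to 0.21, for Insig1 from −0.46 to 0.31 and for Dhcr7 from −1.09 to 0.48.

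**Figure D4:**
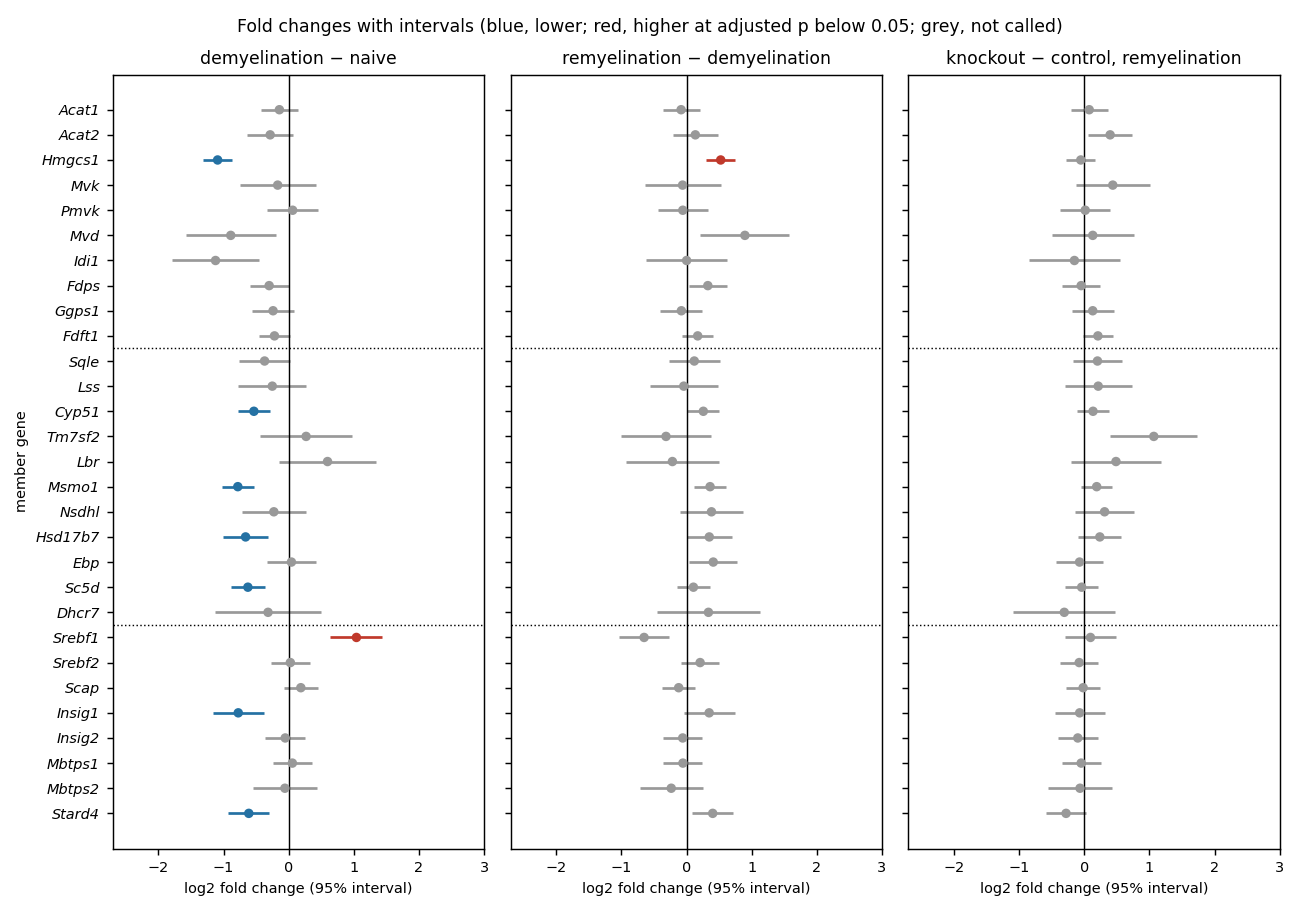
Log2 fold change of each of the 29 members with its 95% interval in 3 comparisons between groups, with a line at 0. In knockout against control remyelination the interval of Hmgcs1 runs from −0.28 to 0.17 and that of Tm7sf2 from 0.40 to 1.74.

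Summed over the 11 members from squalene on, the 7 knockout libraries lay between 301 and 355 CPM and the 7 remyelination controls between 263 and 299, without overlap, although none of the 11 was called. Of these members, 8 had a difference above 0, with a median of 0.20 against −0.00032 over all genes tested, of which 50% lay below 0. Without Tm7sf2, whose value is uncertain, the sums were 282.3 to 323.4 and 256.6 to 281.6 CPM. These ranges still did not overlap, but they nearly touched. This sum was looked at after the values were known and carries no test. Before squalene the sums overlapped, at 467 to 671 CPM in knockout and 490 to 613 in control libraries, and among regulators they were 294 to 346 and 311 to 397 CPM. Differences above 0 were also found in 7 of 10 members before squalene (median 0.10), but in 1 of 8 regulators (median −0.07). The oligodendrocyte markers summed to 2821 to 4281 CPM in the knockout and 2756 to 3665 in controls, with no marker called. Of the microglia markers Cx3cr1, the gene named in the Cre genotype, was lower in the knockout (−0.89, SE 0.18, adjusted p = 0.0365). The cause of this difference was not tested.

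Against naive brain, knockout remyelination had 3 members lower and none higher, where 1.71% of all genes were called lower and 1.54% higher. These shares depend on single libraries: the 212 genes lower became 404 without knockout library 1, and between 59 and 141 without knockout library 3, 6 or 7 or naive library 2, 3, 4 or 5, and the 191 higher became 332 without knockout library 1 and between 87 and 120 without knockout library 6 or 7 or naive library 2 or 5. Hmgcs1 differed by −0.62 (SE 0.11, adjusted p = 0.00039), Sc5d by −0.56 (SE 0.12, adjusted p = 0.00682) and Idi1 by −1.27 (SE 0.33, adjusted p = 0.023). For Sc5d all knockout libraries lay below all naive ones, as in 0.483% of all genes tested. The knockout libraries of Idi1 lay between 10.8 and 25.4 CPM with a median of 15.5, 6 of 7 below the lowest naive library. The call of Idi1 was lost without naive library 4 (adjusted p = 0.0557) or 5 (0.0577), or without knockout library 7 (0.0675). Against demyelination, 2 members were higher and none lower, where 0.370% of all genes were called higher and 0.233% lower. Msmo1 was at 67.4 ± 9.20 CPM in the knockout (0.55, SE 0.12, adjusted p = 0.00975, and 0.0519 with only the groups compared in the fit), and Hmgcs1 differed by 0.47 (SE 0.11, adjusted p = 0.0261). The call of Hmgcs1 was lost without demyelination library 3 (adjusted p = 0.0727), 6 (0.0519) or 7 (0.0664), or without knockout library 1 (0.0583) or 5 (0.0906). Markers moved here too: against demyelination 9 of 11 oligodendrocyte markers were higher and 4 of 8 microglia markers lower, and against naive 2 of 11 oligodendrocyte markers were lower, 4 of 8 microglia markers higher and 1 lower, and 1 of 6 astrocyte markers higher. Their part in the members' differences was not tested. These comparisons share their knockout libraries with the one above, and no difference between the knockout and the controls follows from a call in one and not in the other.

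Neighbouring pathways were described through lists of other genes. Of 12 genes of the other isoprenoid branches, which make dolichol, ubiquinone and prenyl groups, none was called, with a median difference of −0.04 between demyelination and naive. Of 13 fatty acid genes under SREBP control none was called in this comparison (median −0.004). Elovl6, a fatty acid elongase, was lower in knockout remyelination than in naive libraries (−0.45, SE 0.12, adjusted p = 0.0261). There 1.71% of all genes tested were called lower. Of 12 genes of sterol sensing and degradation 11 were tested and none was called in any comparison.

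Of 16 genes of sterol uptake, efflux and oxysterol formation counted here 13 were tested. At the peak of demyelination 2 of these were higher than in naive brain, where 1.30% of all genes tested were called higher. Apoe, the main lipid carrier made by glia, rose from 1205 to 2473 CPM (1.04, SE 0.11, adjusted p = 3.24e-09), and Abca1, which loads it with cholesterol, rose from 39.0 to 79.3 CPM (1.01, SE 0.15, adjusted p = 9.62e-06). Apoe was also higher in remyelination (0.80, SE 0.11) and in knockout remyelination (0.98, SE 0.11) than in naive libraries. Npc2, the lysosomal sterol carrier, was higher in knockout remyelination than in naive libraries (0.61, SE 0.15, adjusted p = 0.02), and Abca1 was lower in knockout remyelination than in demyelination (−0.59, SE 0.15, adjusted p = 0.037). Of all genes tested, 0.451% were called higher in remyelination and 1.54% in knockout remyelination than in naive. Between knockout remyelination and demyelination 0.233% were called lower. None of the 13 was called between knockout and control remyelination.

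In the GENCODE M21 annotation 12 of the 29 members share exon sequence with another gene, 5 on the same strand and 9 on the opposite one. Among called members these are Hmgcs1 with Gm48342, Cyp51 with Akap9, Idi1 with Gm48574 and Srebf1 with Rai1, all on the opposite strand, and Srebf1 with Mir6922 on the same strand. The labels do not state the strand setting of the counting, so reads of such pairs may not be told apart, and these values are uncertain to that extent.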

How the data were processed

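RNA was isolated from whole brain with TRIzol and made into QuantSeq 3′ mRNA FWD libraries, per the labels' protocols. The authors deposited RSEM gene tables with 1 expected count per gene, unnormalised, per the file headers. FastQC, cutadapt, STAR, RSEM, edgeR and GRCm39 are named in the submitters' processing notes, without versions or roles. Over all 55414 genes, those at 0 included, between 96.59 and 97.69% of a library's expected counts were whole within 0.005. The share among detected genes was not computed. All counts were rounded. Symbols came from GENCODE M21 by identifier (52081 of 55414 genes). Counts were TMM-scaled, filtered with filterByExpr and tested in a single edgeR quasi-likelihood fit (edgeR 4.0.16, R 4.3.3) with 1 mean for each of 4 groups of 7 libraries, 24 residual degrees of freedom and Benjamini-Hochberg adjustment over 12423 genes. The common biological coefficient of variation was 19.5%. Each SE was derived from the fold change and its test statistic. Intervals are 95%, from this SE and the t distribution with 24 degrees of freedom. They concern the difference between groups and reflect only the spread between these libraries. Near the threshold an interval and its p-value can differ slightly. The fit was tested on simulated data. DESeq2 1.42.0, limma 3.58.1 and other alternatives are given below. No pair of libraries of the same group agreed within sampling noise (smallest chi-square per degree of freedom 2.53). Pairs across groups were not compared. Members and lists were chosen with earlier results of these data known. Some genes of the neighbouring pathway lists are not reported here and were taken out of those lists after their values were seen, so the counts given do not cover them. Named with full values are members called in any comparison, the 2 members of each class with the highest mean, other genes called, and members and markers a sentence needs, the last chosen after their values were seen. Promoters are RefSeq sequences on GRCm38.p6, searched for motifs in the 250 bases before the start. TPM and FPKM columns were not used.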

Additional observations from a re-analysis of the deposited data

Results flagged for a closer look

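In 5 of the 116 groups of 7 libraries formed by the 29 members, 1 library stood apart from the other 6 by Dixon's test, and chance alone flags about 1 group in 20. The flagged values were Pmvk at 10.82 CPM in knockout library 4, where the others lay between 21.92 and 27.66, and Ggps1 at 96.08 CPM in demyelination library 1, where the others lay between 53.56 and 62.71. Scap was at 73.02 CPM in remyelination library 1, with the others between 110.4 and 124.9. Mbtps2 was at 30.22 CPM in naive library 1, with the others between 11.56 and 18.16, and at 18.84 CPM in remyelination library 6, with the others between 11.13 and 14.27. None of these 4 genes was called in any comparison.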

How the results depend on the processing

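No member's fold change that was called turned its direction under any alternative run. Of the counts of members called, those that moved by over 1.5 times were as follows. With library totals in place of TMM, 1 member was lower in remyelination than in naive (2 in the fit reported) and 1 was higher in knockout remyelination than in demyelination (2). Without naive and knockout libraries 1, 1 was lower in remyelination than in naive. With only the groups compared, 0 were higher in knockout remyelination than in demyelination. Without the filter on low counts, 1 was higher in knockout than in control remyelination, 1 was higher in knockout remyelination than in naive, and 1 was lower in remyelination than in demyelination (0 each in the fit reported). The cause was not tested. With library totals the calls of Stard4 between demyelination and naive (adjusted p = 0.0522), Sc5d between remyelination and naive (0.0538) and Hmgcs1 between knockout remyelination and demyelination (0.0586) were lost. Without the filter on low counts Idi1 was called lower in demyelination and in remyelination than in naive (adjusted p = 0.000529 and 0.000845). DESeq2, run after the filter, called Idi1 in neither. Leaving out each library in turn gave 5 to 8 members lower in demyelination than in naive, 1 to 4 lower in remyelination than in naive, 2 to 4 lower in knockout remyelination than in naive with 0 to 1 higher, 1 to 3 higher in knockout remyelination than in demyelination, and 0 to 1 lower in remyelination than in demyelination. With the replicate number as a replicate block, 8 members were lower in demyelination than in naive, 3 in remyelination than in naive and 4 in knockout remyelination than in naive, while the lower calls over all genes went from 87 to 140, 22 to 74 and 212 to 354. After group means were taken out, same-numbered libraries correlated between −0.13 and 0.30, and at most 3 of 7 matched best with their own number. Their mean correlation was 0.0878 between remyelination and demyelination, against −0.0146 for other numbers. Between remyelination and naive it was −0.0193 against 0.00322. These weak correlations do not decide whether the numbers pair the samples. The labels do not state a pairing, and the fit reported uses no block. Over all genes, the calls between demyelination and naive were 162 higher and 87 lower, and 192 and 59 with library totals. Leaving out 1 library moved the lower calls over all genes from 23 to 13 or 14 between remyelination and demyelination (without remyelination or demyelination library 4) and from 29 to between 11 and 19 between knockout remyelination and demyelination (without demyelination library 2, 6 or 7 or knockout library 2 or 7). Depth limits members such as Dhcr7 and Mvd, at a few CPM against a floor of up to 1.97 before TMM scaling.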

Other observations

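Within groups, the level of Hmgcs1 was set against the summed CPM of the 11 oligodendrocyte markers of the same library, and so was that of Srebf1, giving 8 relations chosen after the values were seen. In naive libraries Pearson's r for Hmgcs1 was 0.96 (exact permutation p = 0.00179, adjusted over the 8 relations p = 0.0143, n = 7) and Spearman's rho 0.89 (exact permutation p = 0.0123), with r of 0.85 without the 2 libraries farthest from the median marker sum. In demyelination libraries r was 0.88 (exact permutation p = 0.00893, adjusted p = 0.0357, n = 7) and rho 0.89 (exact permutation p = 0.0123), with r of 0.97 without the 2 farthest. In remyelination controls r was 0.02 and in knockout libraries 0.53 (exact permutation p = 0.964 and 0.215, n = 7). For Srebf1 the 4 values of r lay between −0.67 and 0.48, and none passed (lowest exact permutation p = 0.0935, adjusted p = 0.249). Both quantities come from the same library and share its scaling, and whether the relations differ between groups was not tested.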
